A study of Mus musculus with 16 samples.

Results

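The regions described here are stretches of the mouse genome in which the authors listed a difference in DNA methylation between Gulo-/- and wild type kidneys and which lie in the first intron of a transcript. In the list of differentially methylated regions that the authors deposited, they are the rows annotated as intron 1 of a transcript on a chromosome other than X and Y. That gave 12023 of the table's 86510 regions, and 12023 of its 82057 autosomal ones. A further 375 first-intron regions on X or Y were not used.

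The study compared kidneys of Gulo-/- mice with those of wild type mice, with the strain of all samples labelled C57BL/6. The product of Gulo catalyses the final step in making vitamin C, which mice normally carry out themselves, so Gulo-/- mice depend on vitamin C in the diet. The labels give no age, sex, diet or treatment. Whole-genome bisulfite sequencing and single-cell RNA sequencing each had 2 Gulo-/- and 2 wild type samples, made from portions of the same chopped and mixed kidneys per the labels' protocols, which do not tie samples to separate animals. The p-values below therefore reflect the spread among these libraries and no more.

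DNA methylation in mammals sits mainly on cytosines followed by guanine (CpG sites) and is removed stepwise after oxidation by the TET enzymes, which need iron and 2-oxoglutarate and for which vitamin C acts as a cofactor. The first intron begins close to the transcription start and often carries enhancers, internal promoters and the downstream edge of a CpG island, where methylation is low in cells that use the gene. Further into a transcribed gene, methylation is usually high.

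The deposited table gives for each region the mean methylation level on 2 sides of the comparison, as a fraction from 0 to 1, and the difference side 1 minus side 2. It does not say which genotype is side 1, and it gives no level per sample and no read coverage. Directions are therefore given by side, no region has a replicate error, the depth behind a level is unknown, and no difference between classes of regions was tested. All listed regions had been chosen by the authors for a difference, and shares among them describe the list. The libraries were of whole kidney, so a changed mix of cell types and a changed methylation level within a cell type cannot be told apart.

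Before filtering, the single-cell libraries held 10073836 and 88925323 UMIs (unique molecules counted) in Gulo-/- replicates 1 and 2, and 10208946 and 61688164 in wild type replicates 1 and 2. After filtering, 1849 and 12403 Gulo-/- cells and 1575 and 7007 wild type cells were kept. Wild type replicates 1 and 2 shared 986 cell barcodes where 33.5 were expected by chance, and 793 of them were taken out of replicate 2. Each genotype had 1 male and 1 female library by Xist and Ddx3y counts. The 2 single-cell libraries of a genotype thus held cells of different animals, and the spread between them includes any difference of sex. Gulo itself had 0 and 2 UMIs in Gulo-/- libraries and 0 and 1 in wild type libraries, too few to check the labels. Cells matching proximal tubule markers made up 49.2% and 23.8% of Gulo-/- cells against 82.1% and 84.3% of wild type cells, and the clusters that held them differed between libraries, 5 of them being almost only wild type replicate 2.

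Some first-intron regions overlapped a window around a second, internal transcription start of their gene, and 6 of these stretches are shown. They are where a first-intron difference comes near a start site. Overlap with a window does not mean that the start itself is covered, and the regions of Esrrg and Micalcl end upstream of it. RefSeq start windows on build GRCm38.p6 (mm10), each of 300 bases from 250 before to 50 after a gene's annotated start, overlapped 59 of the regions. Of these 59 regions 47 were higher on side 2 and 12 on side 1. In 15 regions the window belonged to the gene that the authors' table names, and 8 regions held a whole window. The stretches below are the part of the window inside the region, read 5′ to 3′ on the gene's strand, with each CpG in capitals.
Bcl6, chr16:23981234-23981533, minus strand: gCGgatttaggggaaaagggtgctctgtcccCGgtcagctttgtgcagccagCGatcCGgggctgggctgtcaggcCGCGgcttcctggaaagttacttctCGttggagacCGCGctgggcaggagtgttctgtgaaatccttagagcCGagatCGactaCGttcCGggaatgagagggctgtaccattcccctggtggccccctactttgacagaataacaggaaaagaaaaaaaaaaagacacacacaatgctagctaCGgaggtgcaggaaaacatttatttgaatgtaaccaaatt
Nfix, chr8:84780033-84780332, minus strand: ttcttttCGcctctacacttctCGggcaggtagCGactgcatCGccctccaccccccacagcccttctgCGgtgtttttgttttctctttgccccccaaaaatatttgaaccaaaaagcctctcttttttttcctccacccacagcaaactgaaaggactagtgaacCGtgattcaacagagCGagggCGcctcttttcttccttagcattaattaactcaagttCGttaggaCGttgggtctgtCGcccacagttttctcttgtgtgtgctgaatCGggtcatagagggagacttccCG
Atxn2, chr5:121738282-121738581, plus strand: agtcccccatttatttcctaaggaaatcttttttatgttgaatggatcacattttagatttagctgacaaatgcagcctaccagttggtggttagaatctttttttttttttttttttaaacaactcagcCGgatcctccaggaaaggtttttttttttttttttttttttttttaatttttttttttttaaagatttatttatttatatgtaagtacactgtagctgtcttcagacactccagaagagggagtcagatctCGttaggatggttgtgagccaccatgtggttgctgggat
Esrrg, chr1:187651508-187651590, plus strand: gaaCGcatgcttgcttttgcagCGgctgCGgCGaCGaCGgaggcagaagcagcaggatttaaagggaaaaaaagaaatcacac
Plac8, chr5:100563047-100563286, minus strand: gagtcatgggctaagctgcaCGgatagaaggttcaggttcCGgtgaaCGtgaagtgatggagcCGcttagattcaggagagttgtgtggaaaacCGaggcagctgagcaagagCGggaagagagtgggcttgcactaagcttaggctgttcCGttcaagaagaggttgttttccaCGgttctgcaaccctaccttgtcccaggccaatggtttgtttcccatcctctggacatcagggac
Micalcl, chr7:112374607-112374820, plus strand: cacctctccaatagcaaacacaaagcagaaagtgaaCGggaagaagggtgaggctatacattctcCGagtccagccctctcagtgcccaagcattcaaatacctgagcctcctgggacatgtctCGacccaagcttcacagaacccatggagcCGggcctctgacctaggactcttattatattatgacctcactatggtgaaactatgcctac

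Bcl6, a zinc finger repressor of transcription, had the most CpGs of these 6 regions. Its region of 31 CpGs at chr16:23980969-23981606 stood at 0.141 on side 1 and 0.326 on side 2, and the stretch printed holds 14 of those CpGs. Nfix, a nuclear factor I transcription factor, stood at 0.455 on side 1 and 0.628 on side 2 over 22 CpGs, 13 of them in the stretch. Esrrg, an orphan nuclear receptor of oxidative metabolism, stood at 0.185 on side 1 and 0.324 on side 2 over 12 CpGs, with 6 in its stretch of 83 bases. All 3 are CpG-rich stretches with the lower level on side 1.

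Atxn2, which encodes the RNA-binding protein ataxin-2, differed from them in sequence. Its window holds only 2 CpGs in 300 bases at a GC content of 32.7%, and its region of 7 CpGs stood at 0.560 on side 1 and 0.812 on side 2. Plac8 and Micalcl had the opposite direction. Plac8 stood at 0.705 on side 1 and 0.527 on side 2 over 12 CpGs, and Micalcl at 0.726 on side 1 and 0.436 on side 2 over 11 CpGs. The CG dinucleotide, which reads the same on both strands, occurred in all 65 windows that overlapped a first-intron region. Each listed region holds at least 4 CpGs, so this count was close to given in advance. Of all 32851 windows of the reference 94.6% held a CG. The median was 6.5 CpGs in the overlapping windows and 7 in all. In all 32 cases where a window covered a region's deposited start, that position was the guanine of a CpG, so the listed start falls 1 base after the cytosine of the first CpG.

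Most first-intron regions had the lower methylation level on side 1. Of the 12023 regions, 8327 were higher on side 2 and 3696, or 30.7%, were higher on side 1. The share was 47.3% over the 70034 other autosomal regions, 44.8% in later introns, 21.2% in promoters and 57.2% in distal intergenic regions. The median level of first-intron regions was 0.608 on side 1 and 0.719 on side 2. Regions higher on side 1 were highly methylated there, with medians of 0.871 on side 1 and 0.674 on side 2, while regions higher on side 2 had medians of 0.514 on side 1 and 0.751 on side 2.

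The differences were of moderate size. The median absolute difference was 0.204 in first introns and 0.189 over the other autosomal regions. An absolute difference of at least 0.2 was listed for 52.9% of first-intron regions, 45.6% of later-intron regions, 44.6% of distal intergenic regions and 25.3% of promoter regions. The table also lists very small differences: 219 first-intron regions differed by less than 0.1, 14 of them by less than 0.01, and the smallest difference was 3.4e-05. A first-intron region held a median of 6 CpGs in 257 bases.

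The direction moved with the number of CpGs. Among regions of 4 CpGs, the smallest number in the table, 41.7% of 3082 first-intron regions were higher on side 1. The share was 33.0% at 6 CpGs, 20.2% at 9 to 10, and 13.7% among the 365 regions with 16 to 20. Of the 15 regions with more than 50 CpGs, 1 was higher on side 1, and their median levels were 0.142 on side 1 and 0.328 on side 2. Later introns had the higher share at each number of CpGs, at 52.9% for 4 CpGs and 35.1% for 9 to 10.

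**Figure D1:**
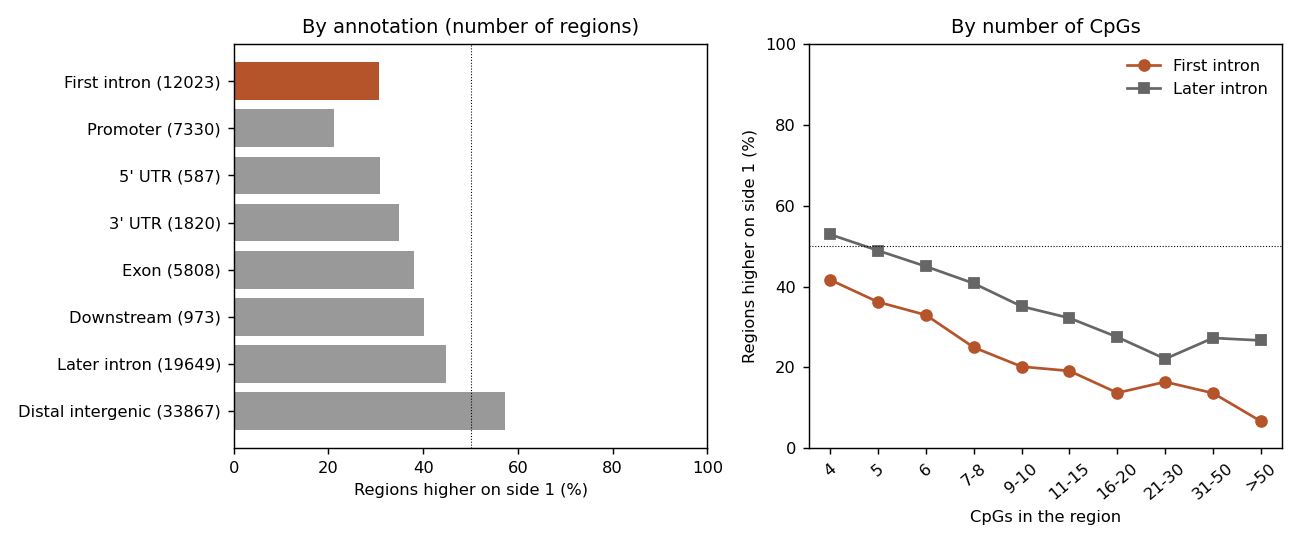
The left panel plots the percentage of autosomal regions higher on side 1 for each annotation, with the number of regions in brackets and a dotted line at 50%. The right panel plots the same percentage against the number of CpGs in a region, where first introns lie below later introns at each point, 41.7% against 52.9% at 4 CpGs.

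Distance from the transcription start went with both the level and the direction. In 9237 regions the intron belonged to the named gene and the region lay downstream of the listed start, at a median of 9493 bases. The table calls a region within 500 bases downstream of a start a promoter, so these regions begin beyond that. At 500 to 1000 bases, 17.1% of 601 regions were higher on side 1, with median levels of 0.319 on side 1 and 0.487 on side 2. At 5000 to 10000 bases the share was 26.1% and the medians were 0.604 on side 1 and 0.746 on side 2. Between 50 and 100 kb the share was 41.4%.

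Beyond 100 kb the majority turned. Of the 385 regions so far into a first intron, 58.2% were higher on side 1, with medians of 0.792 on side 1 and 0.717 on side 2. Later introns had 58.7% at the same distance, and 28.9% at 500 to 1000 bases. The number of CpGs and the distance moved the share together: between 500 and 2000 bases, 12.4% of regions with at least 11 CpGs were higher on side 1, against 56.6% of regions with 4 to 6 CpGs beyond 50 kb.

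**Figure D2:**
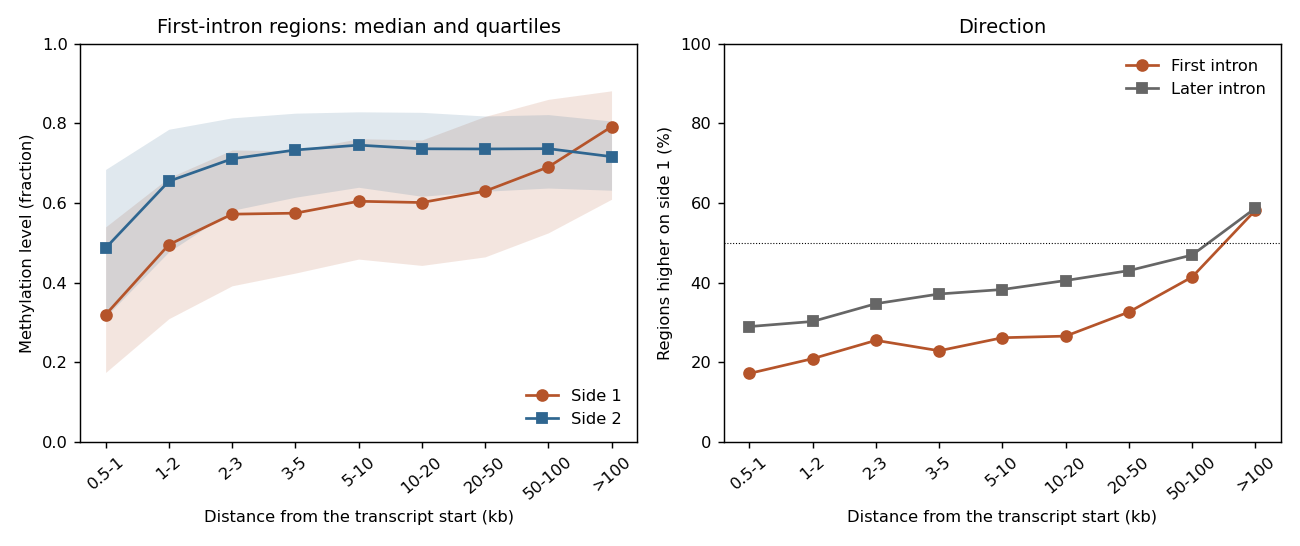
The left panel plots the median methylation level of first-intron regions on side 1 and side 2 (shading from the lower to the upper quartile) against distance from the transcript start in kb, and the right panel the percentage higher on side 1. Side 1 lies below side 2 at 500 to 1000 bases (0.319 against 0.487) and above it beyond 100 kb (0.792 against 0.717).

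Regions near each other tended to share their direction. Adjacent first-intron regions of the same gene less than 500 bases apart had the same direction in 81.9% of 354 pairs, and in 258 of these pairs both were higher on side 2. For pairs more than 10 kb apart the share was 61.4% of 2412. Since only 30.7% of all first-intron regions were higher on side 1, unrelated regions would also share a direction in most pairs. Of the 5057 genes named, 2695 had 1 region and 2362 had at least 2. Among those 2362 genes, all regions were higher on side 1 in 237, all were higher on side 2 in 975, and 1150 had both directions.

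Some genes held many first-intron regions. Cmip, which encodes an adaptor protein, had 27 first-intron regions between chr8:117260955 and chr8:117372429, and all 27 were higher on side 2, with medians of 0.5003 on side 1 and 0.714 on side 2. Sik3, a salt-inducible kinase, had 19 regions, also all higher on side 2, with medians of 0.542 on side 1 and 0.760 on side 2. Spred2, an inhibitor of Ras signalling, had 3 regions higher on side 1 and 21 higher on side 2. Ext1, a heparan sulfate polymerase, had 2 and 21. Maml3, Agap1 and Arl15 had 20, 19 and 19 regions, of which 3, 4 and 3 were higher on side 1. Rora, a nuclear receptor, and Ntm, an adhesion protein of neurons, were split, each with 11 regions higher on side 1 and 10 higher on side 2.

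The largest single differences ran both ways. Among regions with at least 5 CpGs, those named to Mc2r, the receptor for adrenocorticotropin, and to Olfr1507, an olfactory receptor, had the largest excess on side 1, but both lay in introns of transcripts without a gene ID. Mc2r stood at 0.875 on side 1 and 0.306 on side 2. Pnp2, a purine nucleoside phosphorylase, stood at 0.860 on side 1 and 0.324 on side 2 at chr14:50956858-50956966, 717 bases from the start. Ces2h, a carboxylesterase, stood at 0.827 on side 1 and 0.324 on side 2 over 14 CpGs. Bmp1, a protease that cuts procollagen, stood at 0.846 on side 1 and 0.384 on side 2 over 17 CpGs. The regions of Slc35f4, Amotl1 and Apba2 had excesses of 0.513, 0.452 and 0.447. Of these genes, Mc2r, Olfr1507, Slc35f4 and Ces2h had 0 UMIs in all kept cells of the 4 libraries, a count that allows up to 3 UMIs per library.

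On side 2, the region named to Ywhaq, a 14-3-3 protein, stood at 0.320 on side 1 and 0.916 on side 2, though it lies 359 kb from that gene in an intron of a transcript without a gene ID. Rnf217, a ubiquitin ligase, stood at 0.230 on side 1 and 0.745 on side 2 at chr10:31536339-31536447. Scaf4, a factor of transcription termination, stood at 0.386 on side 1 and 0.865 on side 2. Ago2, the slicing enzyme of RNA interference, stood at 0.289 on side 1 and 0.761 on side 2. Tmie, Sik3, Angptl2 and Mgat3 had differences of -0.48, -0.47, -0.46 and -0.46. Scaf4 was measured in every library, at 10.7 and 12.7 counts scaled to a common UMI total (CPM) in all Gulo-/- cells against 3.30 and 7.28 CPM in all wild type cells, a log2 change of 0.59 ± 0.43 (SE) with an edgeR adjusted p of 0.384.

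The direction of a first-intron region went with how strongly its named gene was used in kidney. Levels were the mean CPM over all kept cells of the 4 libraries, for the 4770 gene IDs that matched the count matrix. Of 832 regions whose gene was at 0 CPM, 64.5% were higher on side 1. The share was 48.6% of 2077 regions above 0 and up to 1 CPM, 31.9% of 3154 above 1 and up to 10 CPM, 17.6% of 4774 above 10 and up to 100 CPM, and 10.7% of 587 above 100 CPM. The median level on side 1 was 0.796 at genes at 0 CPM and 0.510 at genes above 100 CPM, while side 2 had medians of 0.687 and 0.725.

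The same order was found with the level of each library alone. Above 100 CPM the share was 10.7% and 11.2% by the levels of Gulo-/- replicates 1 and 2, against 11.1% and 9.74% by those of wild type replicates 1 and 2. It was found near the start and far from it: within 10 kb of the start in the named gene it was 58.7% at genes at 0 CPM and 7.92% above 100 CPM, and beyond 10 kb 70% and 6.41%. With 4 to 6 CpGs the shares were 67.9% and 13.1%, and with 7 or more CpGs 55.6% and 8.53%. Later introns had 65.4% at 0 CPM and 28.7% above 100 CPM, and promoters 42.0% and 16.6%. Read in proximal tubule-like cells alone the shares were 59.7% and 10.3%, and in endothelial-like cells 55.5% and 18.6%.

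**Figure D3:**
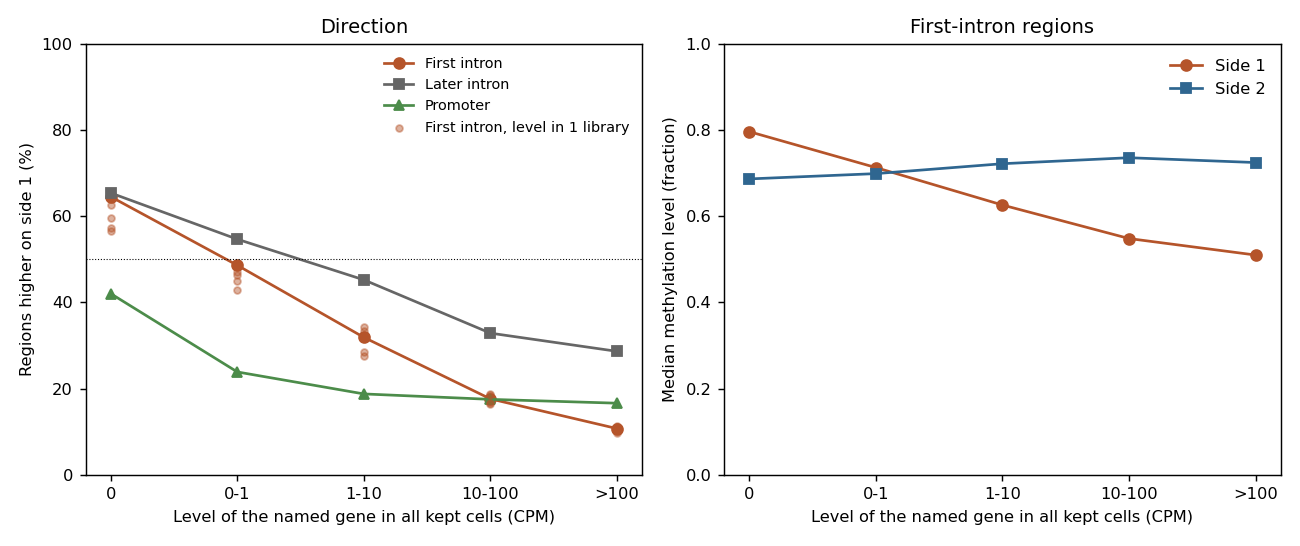
The left panel plots the percentage of regions higher on side 1 against the level of the named gene in CPM, as the mean of 4 libraries (lines) and, for first introns, in each library alone (pale points). The right panel plots the median methylation level of first-intron regions, where side 1 lies at 0.796 for genes at 0 CPM and 0.510 above 100 CPM and side 2 at 0.687 and 0.725.

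Genes with a first-intron region were used in kidney more often than the average gene. Of the 4770, 70.7% reached 1 CPM, against 64.5% of genes with a later-intron region, 72.1% of genes with a promoter region and 45.2% of all 27998 genes in the matrix. Of the 5057 genes, 2039 also had a promoter region, which is 40.3% of the first-intron genes and 33.9% of the promoter genes. Among genes with a single direction in each, the promoter was higher on side 2 in 85.2% of 1095 genes whose first-intron regions were higher on side 2, and in 77.3% of 317 genes whose first-intron regions were higher on side 1. Of all 5701 genes whose promoter regions had a single direction, 4550 were higher on side 2. For later introns the shares were 65.8% of 845 genes and 44.4% of 311 genes, beside 2727 of all 4979 genes with a single direction there.

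The authors' deposited table of cluster marker genes gave a second view by cell type. Its 1193 marker genes included 420 with a first-intron region, and 18.6% of their 1291 regions were higher on side 1, against 32.2% of the 10732 regions of other genes. By the authors' deposited table, 4 of 72 regions at markers of the cluster PT-BB were higher on side 1, as were 8 of 95 at LOH markers, 3 of 40 at DCT1 markers and 9 of 89 at PT3 markers. The largest share among the clusters with at least 50 regions was that of fEC, with 73 of 248 regions or 29.4%. These cluster names are the authors' own, and a gene can mark more than 1 cluster.

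Genes of fatty acid oxidation, the main fuel pathway of the proximal tubule, had all 24 of their first-intron regions higher on side 2. The regions fell in 10 of 43 genes of the list. Counts in this and the following lists stand beside a share of 30.7% higher on side 1 over all first-intron regions. That share was 17.6% at genes above 10 and up to 100 CPM and 10.7% above 100 CPM. Regions of the same gene often shared a direction. Each region was counted for the gene that the authors' table names, also where the intron belonged to another transcript. In these lists, the levels given for a gene with several regions are those of its region with the largest difference, unless medians are named. Cpt1a, which moves long-chain fatty acids into mitochondria, had 6 of the 24 regions. Its region at chr19:3335017-3335842 stood at 0.425 on side 1 and 0.778 on side 2. Hadh, of the beta-oxidation spiral, stood at 0.596 on side 1 and 0.904 on side 2. Ehhadh, a peroxisomal enzyme, stood at 0.480 on side 1 and 0.785 on side 2. Abcd3, a peroxisomal fatty acid carrier, stood at 0.483 on side 1 and 0.756 on side 2 over 20 CpGs. In proximal tubule-like cells 0 of the 10 genes passed the test of genotype, where 0.455% of all genes did. Their median log2 change was -0.49, where that of all genes was 0.03. Hadh had 380.2 and 492 CPM in Gulo-/- libraries against 636.2 and 445 CPM in wild type libraries, which overlap. Abcd3 had 88.6 and 94.8 CPM in Gulo-/- libraries against 108.8 and 129.3 CPM in wild type libraries, which do not overlap. Its edgeR adjusted p was 0.31.

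Genes of proximal tubule transport and uptake had 4 regions higher on side 1 and 43 higher on side 2, in 14 of 35 genes. Dab2, an adaptor of endocytosis, had 11 regions, all higher on side 2, with medians of 0.550 on side 1 and 0.738 on side 2. Lrp2, the endocytic receptor megalin, had 1 region higher on side 1 and 4 higher on side 2, and the region at chr2:69564967-69565516 stood at 0.446 on side 1 and 0.838 on side 2. Slc2a2, the basolateral glucose transporter GLUT2, had 1 region higher on side 1 and 2 higher on side 2, with medians of 0.543 on side 1 and 0.651 on side 2, and its region with the largest difference stood at 0.296 on side 1 and 0.651 on side 2 over 10 CpGs. Slc9a3, the sodium-proton exchanger NHE3, had 5 regions, all higher on side 2. In proximal tubule-like cells Lrp2 had 336.4 and 338.8 CPM in Gulo-/- libraries against 315.3 and 400.1 CPM in wild type libraries, and 0 of 13 tested genes of the list passed, against 0.455% of all genes.

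Distal nephron transport genes had 5 regions higher on side 1 and 51 higher on side 2, in 16 of 39 genes. Nedd4l, the ubiquitin ligase that limits the epithelial sodium channel, had 13, all higher on side 2. Kcnj16, a potassium channel subunit, stood at 0.369 on side 1 and 0.730 on side 2. Stk39, a kinase that activates sodium-chloride cotransport, had 1 region higher on side 1 and 6 higher on side 2, the largest difference being 0.482 on side 1 and 0.826 on side 2, and Trpm7, a magnesium channel, stood at 0.474 on side 1 and 0.781 on side 2. Kidney transcription factors had 8 regions higher on side 1 and 69 higher on side 2, in 24 of 45 genes. The vitamin D receptor gene Vdr had 10 regions, all higher on side 2, with medians of 0.342 on side 1 and 0.576 on side 2. Esrrg had 1 region higher on side 1 and 14 higher on side 2, and Rxra, the partner of many nuclear receptors, had 1 and 9. The coactivator gene Ppargc1a stood at 0.401 on side 1 and 0.702 on side 2 in its region with the largest difference, and Mecom at 0.461 on side 1 and 0.755 on side 2.

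Genes that add or remove DNA methylation were also among those named. Of 14 regions named to 8 of 23 genes, 1 was higher on side 1 and 13 on side 2. Over all first-intron regions 30.7% were higher on side 1. The 1 region named to Gadd45a, higher on side 2, lay in an intron of another transcript, and the others lay in the named gene. Tet2, which oxidises methylcytosine, stood at 0.561 on side 1 and 0.884 on side 2 at chr3:133517334-133517825, over 9 CpGs. Tet1 and Tet3 each had 1 region, both higher on side 2. Dnmt3a, a methyltransferase that adds methylation to unmethylated sites, had 5 regions, all higher on side 2, one of which stood at 0.267 on side 1 and 0.546 on side 2. Zbtb38, a reader of methylated DNA, and Idh2, which makes and uses 2-oxoglutarate in mitochondria, stood at 0.526 and 0.585 on side 1 and at 0.725 and 0.782 on side 2. Tet2 had 21.5 and 15.7 CPM in Gulo-/- proximal tubule-like cells against 6.78 and 11.8 CPM in wild type ones, with a log2 change of 0.85 ± 0.34 (SE) and an edgeR adjusted p of 0.299.

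All 11 regions in 5 of 22 Jumonji histone demethylase genes, enzymes that use the same cofactors as the TET proteins, were higher on side 2. Jmjd1c had 6 of them, 4 of which lay in an intron of Jmjd1c itself, and one stood at 0.572 on side 1 and 0.859 on side 2. Phf2 stood at 0.528 on side 1 and 0.805 on side 2, Kdm4b at 0.450 on side 1 and 0.665 on side 2, and Kdm5b at 0.364 on side 1 and 0.563 on side 2. Genes of vitamin C transport and of other enzymes that use it had 2 regions higher on side 1 and 19 higher on side 2, in 9 of 28 genes. P3h2, a collagen prolyl hydroxylase, had 1 and 8, and one of its regions stood at 0.414 on side 1 and 0.764 on side 2. P4ha1, another, stood at 0.371 on side 1 and 0.637 on side 2, and Slc2a1, a transporter of glucose and oxidised vitamin C, at 0.588 on side 1 and 0.823 on side 2. Pam, which amidates peptides, had 1 region in each direction, with medians of 0.615 on side 1 and 0.670 on side 2, and the larger difference was 0.263 on side 1 and 0.492 on side 2. The m6A list, of RNA methylation enzymes and readers, had 4 regions higher on side 1 and 14 higher on side 2 in 8 of 21 genes. Among them the demethylase gene Fto had 2 of each, one standing at 0.532 on side 1 and 0.802 on side 2, and Igf2bp2, Ythdc1 and Alkbh5 had largest differences of -0.27, -0.22 and -0.21, with 1 of the 7 regions of Igf2bp2 higher on side 1.

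Lists of other cells and of injury were less one-sided in count. The endothelial list had 20 regions in each direction, in 17 of 33 genes. Plvap, of endothelial fenestrae, stood at 0.914 on side 1 and 0.490 on side 2 at chr8:71509963-71510412, and Kdr, the main VEGF receptor, had 2 regions, both higher on side 1. Erg, Flt4 and Cdh5, an endothelial transcription factor, a lymphatic VEGF receptor and the cadherin of endothelial junctions, had their largest differences the other way, at 0.486, 0.285 and 0.304 on side 1 and 0.771, 0.565 and 0.580 on side 2, though 2 of the 5 regions of Erg were higher on side 1. In endothelial-like cells, 0 of the 17 tested genes of the list passed, where 0.6% of all genes did, and Plvap had 4340 and 2330 CPM in Gulo-/- libraries against 3505 and 2886 CPM in wild type ones.

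Wnt, TGF beta, BMP and Notch genes had 28 regions higher on side 1 and 83 higher on side 2, in 27 of 51 genes. Smad3, which carries the TGF beta signal, had 9 regions, all higher on side 2, one of them at 0.440 on side 1 and 0.834 on side 2. Ror1, a Wnt receptor, had 2 regions higher on side 1 and 3 higher on side 2, with medians of 0.734 on side 1 and 0.811 on side 2, and its largest difference, 0.734 on side 1 and 0.429 on side 2, ran against the majority. Wnt7b, a ligand, had 1 region higher on side 1 and 2 higher on side 2, the largest difference being 0.543 on side 1 and 0.859 on side 2. Notch2, a receptor, had 5 regions, all higher on side 2, one of them at 0.370 on side 1 and 0.675 on side 2. Matrix genes had 14 regions higher on side 1 and 33 higher on side 2, in 21 of 41 genes, a share of 29.8% on side 1 that is close to the 30.7% of all first-intron regions. Col8a1 and Col6a3, both collagens, stood at 0.752 and 0.872 on side 1 and at 0.470 and 0.604 on side 2, while Lama4 and Col18a1, of basement membranes, stood at 0.330 and 0.233 on side 1 and at 0.634 and 0.508 on side 2, with 1 of the 3 regions of Lama4 higher on side 1. Injury genes had 6 regions higher on side 1 and 9 higher on side 2, in 5 of 39 genes. Atf3, a stress-response factor, had 2 regions higher on side 1 and 4 higher on side 2, with medians of 0.734 on side 1 and 0.730 on side 2 and a largest difference of 0.445 on side 1 and 0.713 on side 2. Cd44, a hyaluronan receptor, had 3 regions higher on side 1 and 1 higher on side 2, the largest difference being 0.930 on side 1 and 0.673 on side 2. Nfkb1, an NF-kappa-B subunit, had 1 region in each direction, with medians of 0.423 on side 1 and 0.408 on side 2, and the larger difference was 0.544 on side 1 and 0.306 on side 2.

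**Figure D4:**
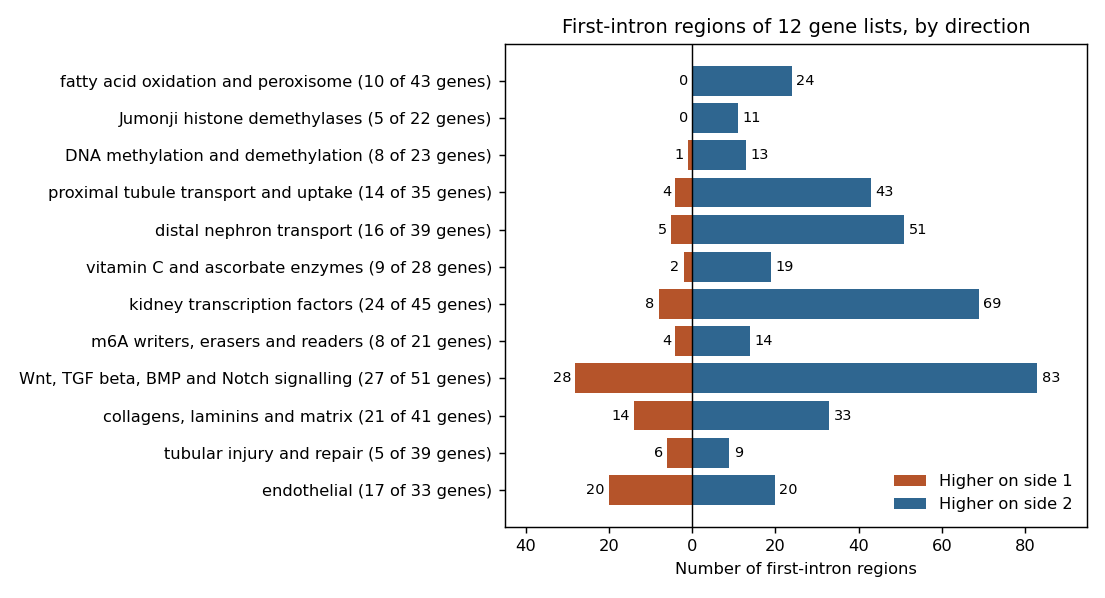
Bars count first-intron regions of 12 gene lists, those higher on side 1 to the left of 0 and those higher on side 2 to the right, with the number of genes named by them in brackets. Fatty acid oxidation has 0 and 24, and the endothelial list 20 and 20.

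Chromosome 14, which carries Gulo, stood apart from the other autosomes. Of its 580 first-intron regions, 42.9% were higher on side 1, where the other autosomes ranged from 22.6% on chromosome 19 to 34.3% on chromosome 7. Differences of at least 0.3 made up 11.6% of its regions, against 6.26% on the other autosomes together. The share was 42.3% of 149 regions within 10 Mb of Gulo, 67.3% of 153 regions 10 to 30 Mb away and 29.9% of 278 regions farther away.

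Some of these regions lay in the T-cell receptor alpha locus, chosen for description after its values were seen. RefSeq on GRCm38.p6 places Tcra at chr14:52427967-54224198, and 37 first-intron regions lay inside it, in introns of transcripts without a gene ID. The authors' table names them by the nearest genes, 23 for Olfr1507 and 14 for Dad1, a subunit of the oligosaccharyl transferase. Of the 37 regions, 35 were higher on side 1, with medians of 0.837 on side 1 and 0.519 on side 2. The region with the largest difference, at chr14:52909327-52911503, stood at 0.899 on side 1 and 0.267 on side 2, with 4 CpGs in 2177 bases. Without these 37, 39.4% of 543 regions on chromosome 14 and 58.6% of 116 regions 10 to 30 Mb from Gulo were higher on side 1. These 116 were not alike on both sides of Gulo. At lower positions than Gulo 63.5% of 85 were higher on side 1, with 19 differences of at least 0.3. At higher positions 45.2% of 31 were, with 0 such differences. Cells matching T and NK markers numbered 3 and 222 in Gulo-/- libraries against 16 and 81 in wild type libraries, or 0.162% and 1.79% against 1.02% and 1.16% of kept cells, and their part in these differences was not tested. The 14 Dad1 regions also made up 14 of the 63 regions higher on side 1 at genes above 100 CPM, and without chromosome 14 that share was 7.88%.

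RNA levels of genes with a first-intron region were compared between the genotypes. In proximal tubule-like cells, edgeR's quasi-likelihood test called 10 of 2843 tested genes with a first-intron region at an adjusted p under 0.05, or 0.352%, against 50 of all 10998 genes tested, or 0.455%. Of these, 2 of the 10 were higher in Gulo-/- (0.227% of all genes were called higher) and 8 were lower (0.227% of all genes were called lower). The share called among first-intron genes is close to that of all genes. Of the 10, 6 had only regions higher on side 2, 2 only regions higher on side 1 and 2 both. The fit moved with single libraries: 0 of the first-intron genes were called without Gulo-/- replicate 1 or without Gulo-/- replicate 2, 70 without wild type replicate 1 and 11 without wild type replicate 2, and with sex as a term 0 were. DESeq2 called 75, the fit with the replicate number as a block 68 and a minimum of 1 UMI 225, and 472 of the 2843 had an unadjusted p under 0.05.

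Keg1, a gene of the glycine N-acyltransferase family in proximal tubule, had 356.4 and 332.6 CPM in Gulo-/- proximal tubule-like cells against 1924 and 2115 CPM in wild type ones. Both Gulo-/- libraries lay below both wild type libraries, with a log2 change of -2.68 ± 0.29 (SE) and an edgeR adjusted p of 0.0311. Its first-intron region at chr19:12701294-12701730 stood at 0.457 on side 1 and 0.792 on side 2. Pecr, a peroxisomal enoyl-CoA reductase, had 228.3 and 220.9 CPM in Gulo-/- against 610.8 and 739.0 CPM in wild type libraries, a log2 change of -1.71 ± 0.26 (SE) with an edgeR adjusted p of 0.0474. Its region, 733 bases from the start, stood at 0.595 on side 1 and 0.745 on side 2.

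Adtrp, an esterase that cleaves fatty acid esters of hydroxy fatty acids, had 14.5 and 10.3 CPM in Gulo-/- against 60.6 and 62.9 CPM in wild type libraries, and its region stood at 0.383 on side 1 and 0.684 on side 2. Isoc2b had 3.89 and 5.16 CPM in Gulo-/- against 29.0 and 42.3 CPM in wild type libraries, and its region had the other direction, at 0.965 on side 1 and 0.734 on side 2. Mgmt, a DNA repair enzyme that removes alkyl groups from guanine, had 3.11 and 5.34 CPM in Gulo-/- against 17.7 and 17.7 CPM in wild type libraries, and 2 of its 3 regions were higher on side 1. Cyp27a1, a mitochondrial sterol hydroxylase, had 2.33 and 3.18 CPM in Gulo-/- against 10.1 and 12.5 CPM in wild type libraries, and stood at 0.844 on side 1 and 0.674 on side 2. Apob, the protein of low density lipoprotein, fell by 2.49 on the log2 scale, but its 3 regions lie in transcripts without a gene ID. These 5 genes were named because the test called them, and their edgeR adjusted p ranged from 0.0245 to 0.0474.

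The 2 genes that rose were Cadm4 and Sparcl1. Cadm4, a cell adhesion molecule, had 20.7 and 14.7 CPM in Gulo-/- against 3.04 and 2.63 CPM in wild type libraries, a log2 change of 2.53 ± 0.35 with an adjusted p of 0.0455, and its 3 regions were all higher on side 2. Sparcl1, a secreted matrix protein of endothelial and stromal cells, had 10 and 31 UMIs in Gulo-/- against 0 and 1 UMIs in wild type libraries, with an edgeR adjusted p of 0.0444. Other endothelial genes were also found in cells of this class: the 12 tested endothelial list genes with a first-intron region had a median log2 change of 1.89, where the median of all genes was 0.03, and Plvap had 20.5 and 17.0 CPM in Gulo-/- against 4.840 and 4.804 CPM in wild type libraries. The part of RNA from other cells in these values was not tested.

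In endothelial-like cells 10 of 1720 tested genes with a first-intron region were called, or 0.581%, against 38 of all 6337 genes, or 0.6%. All 10 were lower in Gulo-/-, as were 0.568% of all genes, and 0.0316% of all genes were called higher. Leaving out a library gave 0 to 106 first-intron genes, with 1 without wild type replicate 1, 0 without wild type replicate 2, 106 without Gulo-/- replicate 1 and 61 without Gulo-/- replicate 2. The cells were few, 294 and 676 in Gulo-/- and 89 and 133 in wild type libraries.

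Apol9a, induced by interferon, had 0 and 1 UMIs in Gulo-/- against 15 and 22 UMIs in wild type endothelial-like cells, and its region stood at 0.591 on side 1 and 0.839 on side 2. Ifi204, a DNA sensor of the interferon response, had 3.18 and 3.31 CPM in Gulo-/- against 58.2 and 34.6 CPM in wild type libraries. These rest on 2 and 9 UMIs against 22 and 16 UMIs. The log2 change of Ifi204 was -3.90 ± 0.49 with an edgeR adjusted p of 0.0182. Its region stood at 0.697 on side 1 and 0.439 on side 2. Zbp1, a sensor of Z-form nucleic acids, had 1.59 and 4.41 CPM in Gulo-/- against 58.2 and 34.6 CPM in wild type libraries, a log2 change of -3.71 ± 0.51 with an edgeR adjusted p of 0.0188. The region named to Zbp1 lies in the first intron of Pmepa1, and the region named to H2-Aa, a class II antigen presentation gene, lies in that of Notch4. H2-Aa had 9.54 and 23.2 CPM in Gulo-/- against 164.2 and 114.6 CPM in wild type libraries, from 6 and 63 against 62 and 53 UMIs. It was also a top gene of the unnamed cluster 19, beside C1qa and Cd74. The part of RNA from other cells in the values of these genes was not tested. Atp8a2, a phospholipid flippase, had 9.54 and 9.93 CPM in Gulo-/- against 100.6 and 62.7 CPM in wild type libraries, from 6 and 27 against 38 and 29 UMIs. Its region stood at 0.895 on side 1 and 0.717 on side 2. These 5 genes were named because the test called them, and their edgeR adjusted p ranged from 0.0141 to 0.0188.

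**Figure D5:**
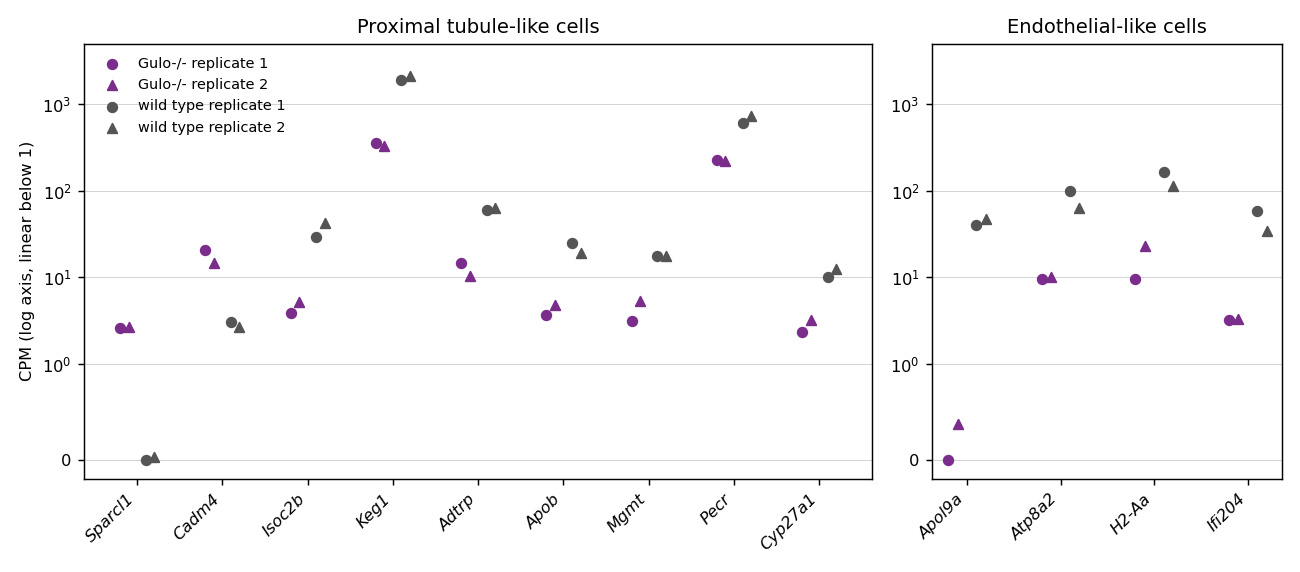
Each point is the level of a gene in 1 library, as CPM of UMIs summed over the cells of a class, on a log axis that is linear below 1, with Gulo-/- left of wild type. Sparcl1 and Cadm4 lie higher in both Gulo-/- libraries and the other genes lie lower, as with Keg1 at 356.4 and 332.6 CPM against 1924 and 2115 CPM.

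Genes grouped by the direction of their first-intron regions had median RNA changes near that of all genes in both cell classes. In proximal tubule-like cells the median log2 change was 0.07 over 368 genes with only regions higher on side 1 and 0.07 over 1895 genes with only regions higher on side 2, against 0.03 over all 10998 genes. In endothelial-like cells the medians were 0.05 over 220 genes, 0.08 over 1159 genes and 0.02 over all 6337 genes. Over all kept cells together they were 0.34 over 592 genes, 0.17 over 2216 genes and 0.06 over all 14038 genes, with middle ranges from -0.40 to 1.17 and from -0.51 to 0.78 in these gene groups. There edgeR called 0 of 3628 tested first-intron genes, where 0% of all genes were called, and 1260 first-intron genes had an unadjusted p under 0.05, while DESeq2 called 772. The smaller share of proximal tubule-like cells in Gulo-/- libraries moves with that comparison, and its part was not tested.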

How the data were processed

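Kidney of Gulo-/- and wild type mice was measured by whole-genome bisulfite sequencing and single-cell RNA sequencing, 2 samples per genotype each. For each differentially methylated region the authors' deposited table gives a count of its CpGs and other values (a mean methylation level from 0 to 1 for each side, the width and the distance to the start) and score values (the difference and an area statistic, the latter not used). The submitters' processing notes name build mm10, Seurat 2.3.4 and MACS2 2.1.2. The caller of the regions was not stated there. Raw UMI counts of the single-cell libraries were used as deposited. The authors' deposited marker table gives p-value and natural log (ln) ratio columns, from which only cluster membership was used.

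Regions were selected by annotation and described with pandas 2.3.3; direction is side 1 minus side 2. Introns were tied to genes by the gene ID in the annotation. Cells with at least 500 UMIs, 200 genes and at most 50% mitochondrial UMIs were kept, doublets were removed by Scrublet score at 0.8% per 1000 cells, and cells were clustered with scanpy 1.11.5 and leidenalg 0.10.2 (2000 variable genes, 30 components, 15 neighbours, resolution 1). Clusters were named from fixed markers and carry "-like" (clusters 16, 19, 22 and 29 stayed unnamed); they rest on rebuilt, not the authors', cell types. UMIs were summed per library and class and tested with edgeR 4.0.16 in R 4.3.3 (TMM, filterByExpr, quasi-likelihood F test, Benjamini-Hochberg over all genes, adjusted p under 0.05), a procedure tested on simulated data. The simulated counts had the same dispersion for every gene and no difference of sex or cell mix between libraries. They therefore do not show how reliable the calls in these libraries are. DESeq2 1.42.0 was an alternative.

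The regions and gene lists were chosen with earlier results of these data known. The genes named are the 8 regions per side with the largest difference among those with at least 5 CpGs, the 10 genes with the most regions, called genes (in each direction up to 10 for proximal tubule-like cells and 4 for the other comparisons) and up to 4 members per list; further list members were named for their number of regions after these were seen, as was Zbp1 among called genes. Genes with Gm or Rik names were only counted. Sequences are from RefSeq (GRCm38.p6). The m6A and bulk RNA samples were not analysed here.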

Additional observations from a re-analysis of the deposited data

How the results depend on the processing

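The share of first-intron regions higher on side 1 stayed below 50% under every alternative: 27.0% with at least 5 CpGs, 18.05% with at least 10 CpGs, 29.0% with the intron in the named gene, 24.0% within 10 kb of the start and 22.9% with an absolute difference of at least 0.2. The share with an absolute difference of at least 0.2 was 55.7% with at least 10 CpGs, 67.2% with 1 region per gene and 54.2% within 10 kb of the start. Added after seeing the data, the share at genes at 0 CPM ranged from 55.6% to 70%, and that at genes above 100 CPM from 6.41% to 13.1%, over the level of each library and the subsets of regions by distance, CpGs, holder gene and chromosome 14.

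Counts of called genes were far less stable. In proximal tubule-like cells, DESeq2 called 303 genes (75 with a first-intron region), a minimum of 1 UMI gave 867 (225), a sex block 0 (0), no doublet removal 20 (3), and leaving out 1 library 1 to 275 (0 to 70); 6 first-intron genes were called among those with a difference of at least 0.2 and 6 within 10 kb. In endothelial-like cells, DESeq2 called 70 genes, a minimum of 1 UMI gave 308 (88), no doublet removal 14 (6), and leaving out 1 library 2 to 331 (0 to 106); the median log2 change of side 1 genes was 0.33 with a minimum of 1 UMI. In all cells, DESeq2 called 2499 genes (772), a minimum of 1 UMI 2074 (659), and leaving out 1 library 0 to 752 (0 to 259). The median of side 1 genes there was 0.44 with a difference of at least 0.2 and 0.26 to 0.50 with 1 library left out. The cause of these shifts was not tested.

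The replicate block gave 309 genes (68 with a first-intron region) in proximal tubule-like cells and 205 (52) in endothelial-like cells. Same-numbered libraries deviated together with a correlation of 0.02 and 0.11 in these classes, and with 2 pairs the numbers were not taken as a pairing. With sums of 89 to 133 wild type endothelial-like cells per library, small differences were not detectable, and the methylation levels carry no depth or replicate error.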

Other observations

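Other antigen receptor loci of the table were looked at after the T-cell receptor alpha locus had been seen, using RefSeq bounds. Over regions of all annotations, 134 of 146 regions in Tcra, 8 of 10 in Tcrb, 53 of 63 in the immunoglobulin kappa locus Igk and 37 of 44 in the heavy chain locus Igh were higher on side 1, against 44.9% of all 82057 autosomal regions. In first introns, 5 of 7 regions in Tcrb and 5 of 5 in Igh were higher on side 1, with median levels of 0.922 and 0.903 on side 1 and 0.756 and 0.660 on side 2. Tcrg and Igl had 2 of 4 each over all annotations, and Igk and Igl had 0 first-intron regions. Cells matching B and plasma cell markers numbered 2 and 161 in Gulo-/- libraries against 4 and 63 in wild type libraries, and their part was not tested.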
